A study of Moricandia moricandioides and Moricandia arvensis and Moricandia suffruticosa with 11 samples.

Results

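Alternative oxidases, uncoupling proteins and dicarboxylate carriers of the mitochondrial inner membrane were followed in mature leaves of 3 Moricandia species. The members were the gene models of 5 alternative oxidases (AOX1A, AOX1B, AOX1C, AOX1D and AOX2), 3 uncoupling proteins (PUMP1, PUMP2 and PUMP3) and 2 dicarboxylate carriers (DIC1 and DIC2), found by their Arabidopsis identifiers. They made up 10 of the 33602 gene models in the deposited table, and 9 of the 10 had enough reads to be tested. Leaf mRNA of 11 plants was sequenced, 1 library per plant.

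The C3–C4 intermediates were M. suffruticosa, with 3 plants numbered 6, 7 and 8, and M. arvensis line MOR1, with 4 plants numbered 9, 12, 13 and 15. The C3 species was M. moricandioides, with 4 plants numbered 6, 8, 12 and 15. All were untreated plants in 1 climate chamber regime with a 12 h day, 23 °C by day, 20 °C by night and about 200 µmol of light per m2 and second. Mature leaves were frozen about 2 h after lights on, before the plants turned to reproduction, and no plant age was given. Each species came from a single seed source and only 1 species was C3, so a difference between photosynthesis types and a difference between species cannot be told apart. Whole leaves were extracted, so fewer cells of a type and less RNA per cell cannot be told apart either.

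Alternative oxidase takes electrons from ubiquinol straight to oxygen. It bypasses the proton-pumping complexes of the cytochrome pathway, so that reducing equivalents are oxidised with little ATP formed. Plant uncoupling proteins belong to the mitochondrial carrier family and let the proton gradient run down. The dicarboxylate carriers of that family exchange malate, oxaloacetate and related acids across the inner membrane. In photorespiration, glycine decarboxylase makes NADH in the leaf mitochondria, and in C3–C4 intermediates this enzyme is concentrated in the bundle sheath. The comparisons below asked how far transcripts for these outlets of mitochondrial reductant differed between the intermediates and the C3 leaf.

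Levels were given as rpm, the reads of a gene in every 1000000 reads counted in a library. Reads had been assigned to coding sequences of Arabidopsis, so reads of a Moricandia gene could have been counted under a close relative in the same family, and the values of single AOX and PUMP members carry this uncertainty. Gene length was not used here, and levels were therefore compared between plants and not between genes. Libraries held 10987959 to 14865167 counted reads. Fold changes and p-values also used a scaling factor for each library (TMM), from 0.834 in M. arvensis plant 9 to 1.17 in M. arvensis plant 13. The rpm levels, their SDs, ranges and overlaps leave this factor out. A transcript was called when its p-value from edgeR's quasi-likelihood test, adjusted over all 15570 tested transcripts, was 0.01 or less.

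The leaf label was checked against marker genes. RBCS1A (6949 to 20052 rpm), RBCS3B and Rubisco activase were abundant in all 11 libraries. Of the 3 root markers, EXPA7 had 1 read, while COBL9 (0.704 to 2.04 rpm) and RHS3 (1.88 to 7.60 rpm) had reads in every plant. Of the 2 flower markers, AP3 had 5 reads in 3 plants, while PI had 208 reads spread over all 11 plants. Of the 4 leaf mesophyll markers, LHCB1.3 had 0 reads, and the summed list was at 42856 to 48680 rpm in M. suffruticosa and 37217 to 53213 rpm in M. arvensis, against 59962 to 74119 rpm in M. moricandioides. The 3 guard cell markers, with KAT1 at 0, summed to 23.6 to 31.2 rpm, 29.2 to 61.2 rpm and 19.8 to 22.3 rpm in these species, and both tested markers, MYB60 (log2 1.16, edgeR adjusted p = 0.000157) and FAMA (log2 0.84, edgeR adjusted p = 0.00814), were higher in M. arvensis than in M. moricandioides. The sums of the 3 vascular markers overlapped between all species. Of these, the phloem regulator APL was at 31.0 ± 6.79 rpm in M. suffruticosa and 22.3 ± 4.73 rpm in M. arvensis, against 17.1 ± 2.26 rpm in M. moricandioides (SD), and was higher in M. suffruticosa than in M. moricandioides (log2 0.79, edgeR adjusted p = 0.00783). Against M. moricandioides, RBCS1A (log2 -1.19, edgeR adjusted p = 0.00264) and RBCS3B (log2 -1.09, edgeR adjusted p = 0.00453) were lower in M. arvensis. Rubisco activase was not called there (log2 0.02, edgeR adjusted p = 0.949). In M. suffruticosa none of the 3 was called. The paper reports a tendency to lower levels for almost all Calvin cycle transcripts of the intermediates. Whether these marker differences are differences in cell types was not tested, nor was their part in the results. Before the results, 2 pairs of libraries stood out as much more alike than any other replicates, namely M. arvensis plants 13 and 15 (Pearson's r of log2 values 0.992 across genes) and M. suffruticosa plants 6 and 7 (0.994). Their counts still differed beyond sampling noise and they were kept as separate plants. M. arvensis plant 9 was the plant least like the others of its species, with r of 0.939 to 0.963. Calls that these libraries decided are named with the result.

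In M. arvensis 5 of the 9 tested members were higher than in M. moricandioides and none was lower, beside 35% of all tested transcripts called, 18.2% higher and 16.7% lower. The 5 were AOX1B, AOX1C, AOX1D, PUMP1 and PUMP3, and in each of them every M. arvensis plant lay above every M. moricandioides plant, as was the case for 23.3% of all transcripts. No member had every M. arvensis plant below, which held for 16.8% of all transcripts. In M. suffruticosa 4 of the 9, namely AOX1B, AOX1C, PUMP1 and PUMP3, were higher than in M. moricandioides and none was lower. The background there was 18.9% called, 10.1% higher and 8.82% lower. The median log2 fold change of the 9 members was 1.13 for M. arvensis and 1.05 for M. suffruticosa, against 0.02 and 0.01 over all transcripts. Both comparisons used the same 4 M. moricandioides plants, so their likeness is not independent. AOX1B and AOX1C were counted as separate members, and whether their rows share reads was not tested.

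**Figure D1:**
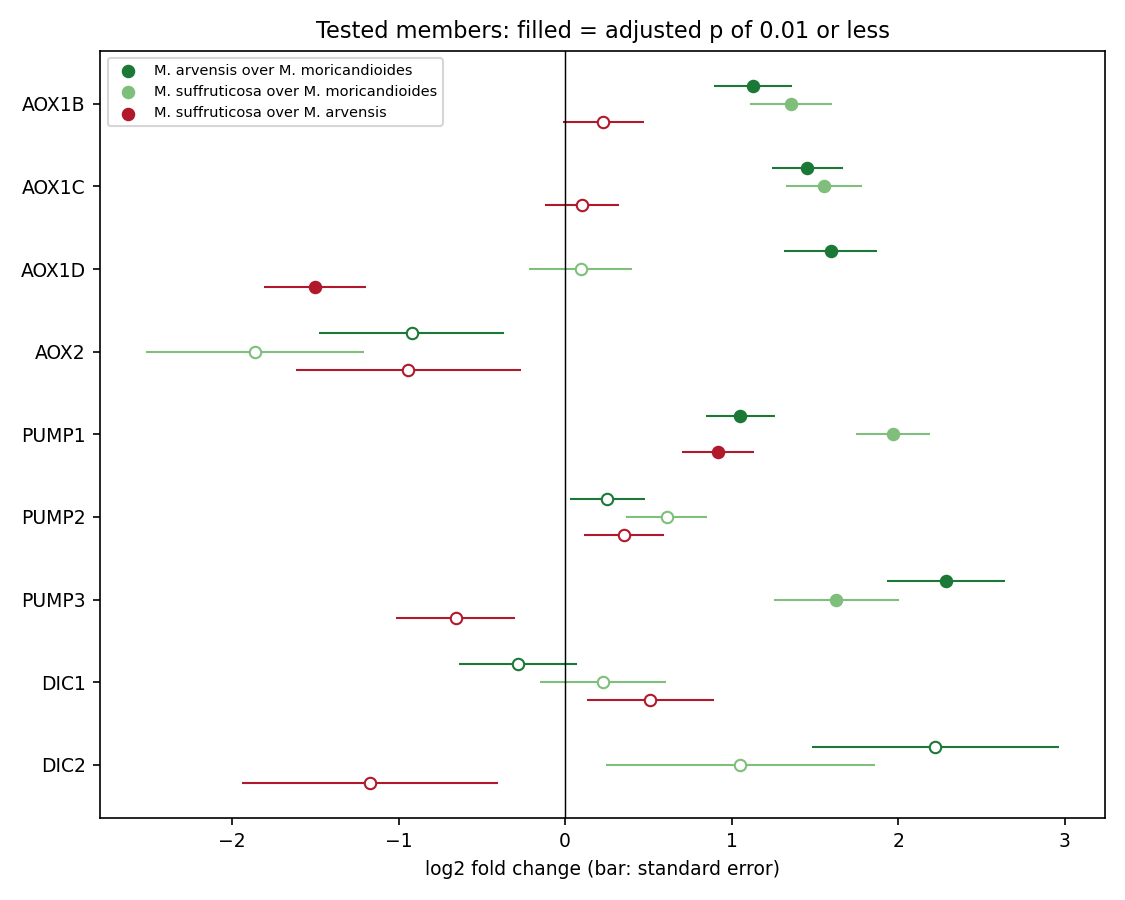
Log2 fold change (horizontal axis) of the 9 tested members in the 3 comparisons, with bars for the standard error and filled points for an adjusted p of 0.01 or less. AOX1B, AOX1C, PUMP1 and PUMP3 carry filled points to the right of 0 in both comparisons with M. moricandioides, AOX1D only in that of M. arvensis.

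AOX1A (AT3G22370), the isoform that rises most under mitochondrial stress in Arabidopsis leaves, was listed at 0 reads in every one of the 11 plants. A count of 0 allows a level of up to 0.202 to 0.273 rpm in a single plant, for counting error only. This is not evidence that the gene was silent. The table listed 8421 of 27416 protein coding models (30.7%) at 0 reads in all plants, among them genes that every leaf cell uses. Actin 2 was at 0 while actin 8 held 113102 reads, and LHCB1.3 was at 0 while LHCB1.2 held 8245013 reads (examples chosen after their values were seen). The sources used here do not list the coding sequences in the reduced Arabidopsis set that served for mapping. Whether reads of a Moricandia AOX1A were counted under AOX1B or AOX1C was not tested.

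AOX1B (AT3G22360), the tandem neighbour of AOX1A in the Arabidopsis genome and there limited to flowers and buds, had 105.5, 111 and 106.0 rpm in M. suffruticosa plants 6, 7 and 8. It had 98.8, 89.2, 89.0 and 97.2 rpm in M. arvensis plants 9, 12, 13 and 15, against 53.6, 30.9, 49.5 and 25.4 rpm in M. moricandioides plants 6, 8, 12 and 15. In rpm, all 7 plants of the intermediates were high with little spread, and the 4 C3 plants were lower and more scattered. The spread after TMM scaling was not computed, and the factors of the M. arvensis plants differed most. The means were 107.5 ± 3.07 rpm in M. suffruticosa and 93.5 ± 5.16 rpm in M. arvensis, against 39.8 ± 13.8 rpm in M. moricandioides (SD, n = 3, 4 and 4). Log2 fold changes over M. moricandioides were 1.36 for M. suffruticosa (SE 0.25, edgeR adjusted p = 0.00143) and 1.13 for M. arvensis (SE 0.23, edgeR adjusted p = 0.0017). The flower markers AP3 and PI together made 0.273 to 0.919 rpm in M. suffruticosa and 1.41 to 6.06 rpm in M. arvensis, against 0.0816 to 0.362 rpm in M. moricandioides. PI, a floral organ identity gene, was higher in M. arvensis than in M. moricandioides (log2 4.08, edgeR adjusted p = 0.000157) and lower in M. suffruticosa than in M. arvensis (log2 -2.39, edgeR adjusted p = 0.00618). The part of flower transcripts in the AOX1B values was not tested.

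AOX1C (AT3G27620), known from Arabidopsis as an isoform that responds to development rather than to stress, followed the same order. It stood at 109, 109.9 and 97.7 rpm in M. suffruticosa plants 6, 7 and 8 and at 106, 97.5, 94.8 and 102 rpm in M. arvensis plants 9, 12, 13 and 15. In M. moricandioides plants 6, 8, 12 and 15 it stood at 42.9, 28.1, 42.2 and 23.1 rpm. The lowest intermediate plant, at 94.8 rpm, stood far above the highest C3 plant, at 42.9 rpm, and the intermediates overlapped one another. Means were 106 ± 6.90 rpm in M. suffruticosa and 100.2 ± 5.03 rpm in M. arvensis, against 34.1 ± 10.0 rpm in M. moricandioides (SD). The log2 fold change was 1.55 for M. suffruticosa (SE 0.23, edgeR adjusted p = 0.00035) and 1.45 for M. arvensis (SE 0.21, edgeR adjusted p = 0.000183).

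AOX1B and AOX1C were also the most alike of the members in their course over the plants. The root mean square difference of their centred log2(rpm + 1) profiles over the 11 plants was 0.141, and 0 of the 9074 other transcripts with at least 10 rpm came closer to either. The same C3 plants, 8 and 15, were low for both. Whether both rows hold reads of the same Moricandia gene was not tested. Outside the members, the profiles most like AOX1C were those of AT1G09240, nicotianamine synthase 3 (0.180), AT4G17350, a protein of unknown function (0.209), and AT1G12450, a SNARE-associated Golgi protein (0.211). These differences describe 11 libraries that share species and depth, and no test was made on them.

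Since an exchange of reads within the family was not tested, the sum of AOX1B and AOX1C was also taken. It came to 214.8, 220.9 and 203.7 rpm in M. suffruticosa plants 6, 7 and 8 and to 204.9, 186.7, 183.9 and 199.6 rpm in M. arvensis plants 9, 12, 13 and 15. It came to 96.5, 59.1, 91.7 and 48.4 rpm in M. moricandioides plants 6, 8, 12 and 15. The sum separated intermediates from the C3 species as the single members did, with means of 213 ± 8.75 rpm in M. suffruticosa and 194 ± 10.1 rpm in M. arvensis, against 73.9 ± 23.8 rpm in M. moricandioides (SD). Both rows together took 98.6 to 99.3% of all AOX reads in M. suffruticosa, 95.6 to 97.2% in M. arvensis and 93.5 to 97.9% in M. moricandioides.

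Within that sum the split between the rows shifted between species. AOX1B took 50.5 ± 1.48% of the reads in M. suffruticosa, 48.3 ± 0.385% in M. arvensis and 53.5 ± 1.52% in M. moricandioides (SD). The ranges were 49.1 to 52.1%, 47.8 to 48.7% and 52.3 to 55.5% and did not overlap. The 95% Wilson intervals of single plants were wide against these gaps, for instance 50.0 to 54.1% in M. suffruticosa plant 8 and 48.7 to 56.0% in M. moricandioides plant 8, and they cover counting error only. The split is given as a description.

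**Figure D2:**
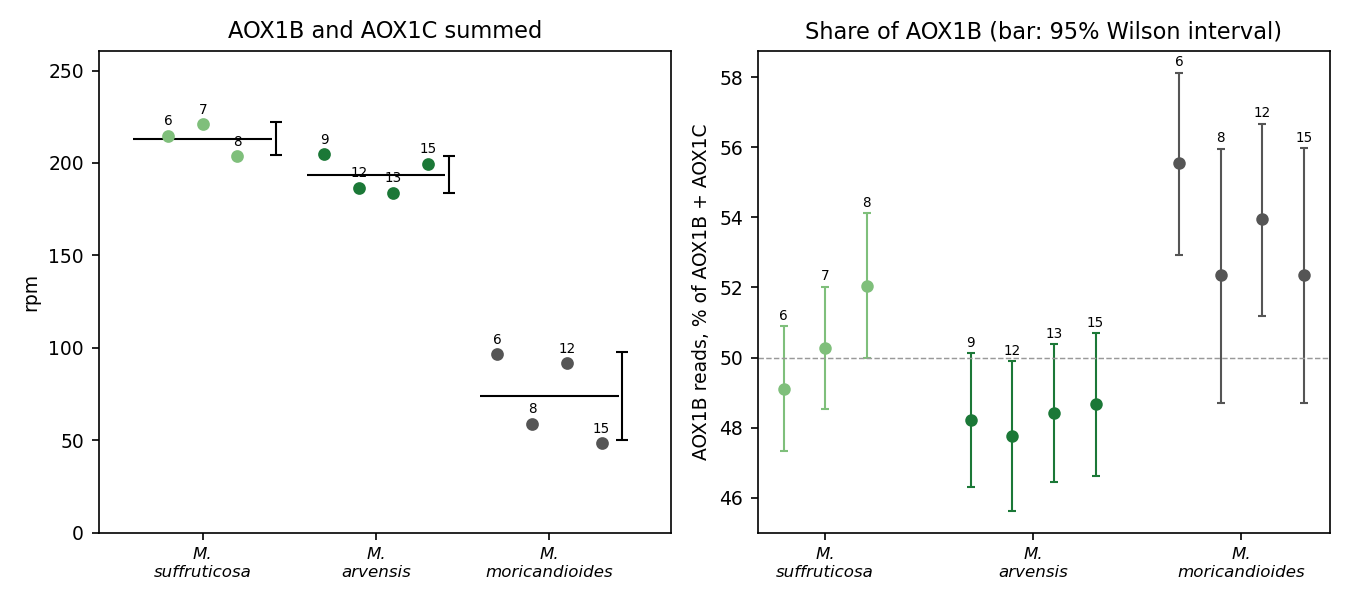
Left, summed rpm of AOX1B and AOX1C in each plant (points, with plant numbers), the species mean (line) and SD (bar). Right, AOX1B reads as a percentage of the summed reads, with 95% Wilson intervals. The 7 intermediate plants lie at 183.9 to 220.9 rpm and the C3 plants at 48.4 to 96.5 rpm, while the share stays between 47.8% and 55.5%.

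AOX1D (AT1G32350), an isoform that responds to inhibitors of respiration and to leaf ageing in Arabidopsis, was high in M. arvensis alone. It reached 2.48, 2.55 and 1.00 rpm in M. suffruticosa plants 6, 7 and 8, and 4.62, 6.24, 7.60 and 5.34 rpm in M. arvensis plants 9, 12, 13 and 15. In M. moricandioides plants 6, 8, 12 and 15 it reached 1.60, 1.71, 1.59 and 2.22 rpm. The lowest M. arvensis plant exceeded the highest plant of both other species, whose ranges overlapped.

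For M. arvensis over M. moricandioides the log2 fold change of AOX1D was 1.60 (SE 0.28, edgeR adjusted p = 0.00059), with means of 5.95 ± 1.28 rpm and 1.78 ± 0.298 rpm (SD). M. suffruticosa, at 2.01 ± 0.873 rpm, had a log2 fold change of 0.09 over M. moricandioides (SE 0.31, edgeR adjusted p = 0.841). Senescence transcripts stood highest in the same species. The 7 listed genes, of which 3 were at 0 reads, summed to 127.6, 124.8 and 138.7 rpm in M. suffruticosa plants 6, 7 and 8 and to 143.9, 218.4, 420.5 and 401.0 rpm in M. arvensis plants 9, 12, 13 and 15. They summed to 38.0 to 79.0 rpm in M. moricandioides. All 3 tested genes of that list were higher in M. arvensis than in M. moricandioides, namely NAP, a senescence regulator (log2 5.06, edgeR adjusted p = 4.05e-06), the dark-inducible SEN1 (log2 8.91, edgeR adjusted p = 3.97e-05) and the pheophytinase PPH (log2 1.36, edgeR adjusted p = 0.000183). In M. suffruticosa NAP and SEN1 were higher too (log2 2.76 and 7.06), while AOX1D was not called. The part of these transcripts in the AOX1D values was not tested.

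AOX2 (AT5G64210), in Arabidopsis a transcript of seeds, was scarce everywhere. It was at 0.496, 0.566 and 0.455 rpm in M. suffruticosa plants 6, 7 and 8 and at 1.33, 0.535, 0.820 and 1.29 rpm in M. arvensis plants 9, 12, 13 and 15. In M. moricandioides plants 6, 8, 12 and 15 it was at 3.75, 1.96, 0.362 and 1.14 rpm. These levels rested on 5 to 54 reads per library, and the C3 plants spanned the intermediates. Log2 fold changes over M. moricandioides were -1.86 for M. suffruticosa (SE 0.66, edgeR adjusted p = 0.0448) and -0.92 for M. arvensis (SE 0.56, edgeR adjusted p = 0.189), neither of them called. These values turned on single C3 plants. Without M. moricandioides plant 6, which held 54 reads, they were -1.23 for M. suffruticosa (edgeR adjusted p = 0.142) and -0.29 for M. arvensis (edgeR adjusted p = 0.674). Without M. moricandioides plant 12, which held 5 reads, the difference for M. suffruticosa was -2.21 (edgeR adjusted p = 0.00945).

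**Figure D3:**
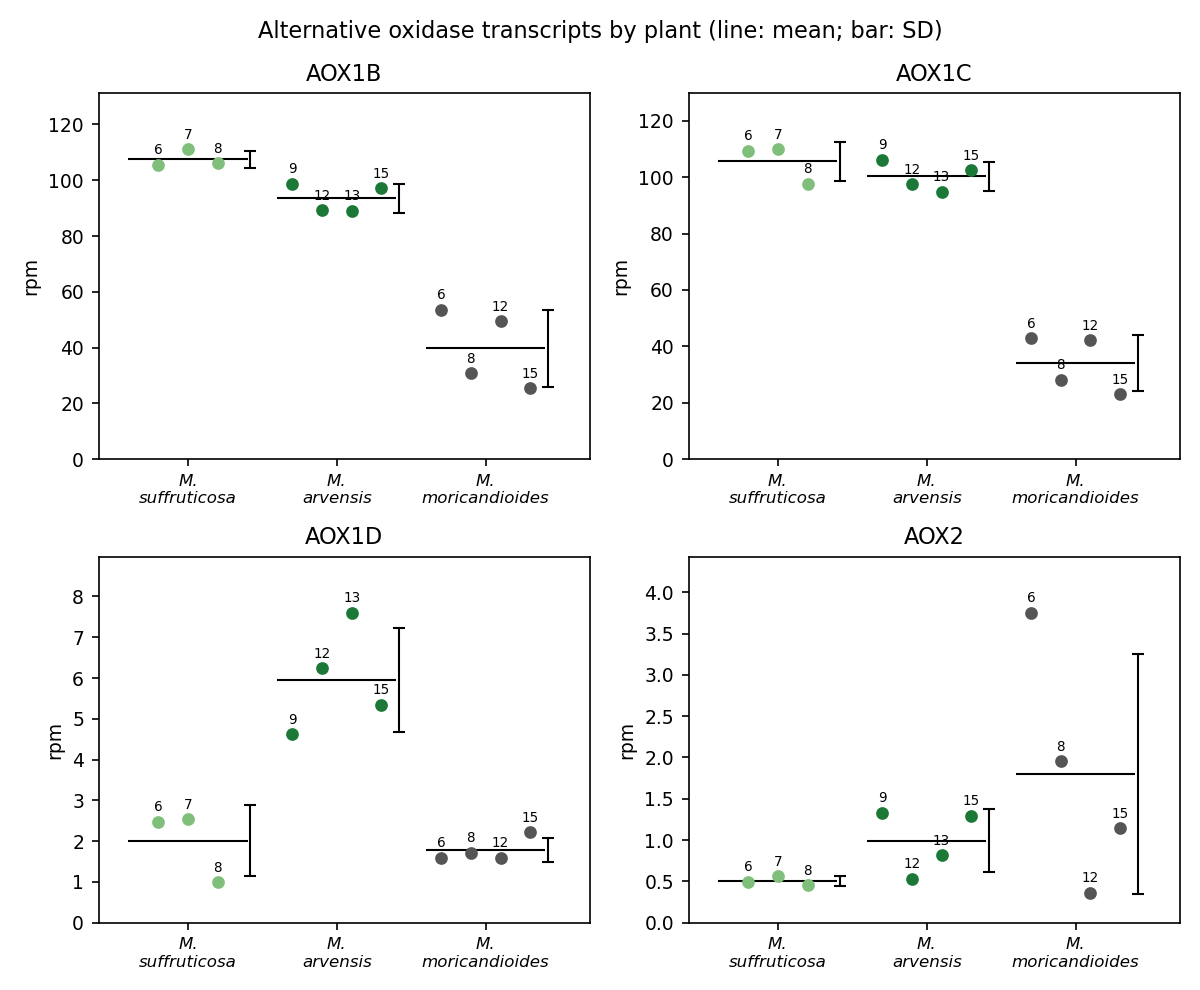
Level in rpm (vertical axes, each from 0) of the 4 alternative oxidases with reads, by plant. Points are plants with their numbers, lines are means and bars are SD, for M. suffruticosa, M. arvensis and M. moricandioides from left to right. AOX1B and AOX1C are high in both intermediates, AOX1D in M. arvensis at 4.62 to 7.60 rpm, and AOX2 overlaps between the C3 species and both others.

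Among the uncoupling proteins, PUMP1 (AT3G54110) differed between all 3 species. In Arabidopsis it is the main leaf isoform, and its loss slows photorespiratory glycine oxidation. It was measured at 61.5, 67.5 and 78.4 rpm in M. suffruticosa plants 6, 7 and 8, and at 45.6, 32.9, 31.9 and 37.8 rpm in M. arvensis plants 9, 12, 13 and 15. It was measured at 15.6, 20.1, 16.6 and 15.4 rpm in M. moricandioides plants 6, 8, 12 and 15. The species formed separate ranges, with M. suffruticosa on top, M. arvensis between and M. moricandioides lowest. The species means of the vascular marker APL stood in the same order, but those of the vascular markers SUC2 and SND2 did not. SUC2 was at 180.3 rpm in M. suffruticosa and 222.6 rpm in M. arvensis, against 155.0 rpm in M. moricandioides. SND2 was at 2.81, 1.13 and 1.90 rpm in these species. The part of vascular transcripts in the PUMP1 values was not tested.

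Mean PUMP1 levels were 69.1 ± 8.61 rpm in M. suffruticosa and 37.0 ± 6.27 rpm in M. arvensis, against 16.9 ± 2.17 rpm in M. moricandioides (SD). The log2 fold change over M. moricandioides was 1.97 for M. suffruticosa (SE 0.22, edgeR adjusted p = 7.34e-05) and 1.05 for M. arvensis (SE 0.21, edgeR adjusted p = 0.00134). The profiles most like it over the 11 plants belonged to AT1G62610, a Rossmann-fold protein (root mean square difference 0.191), AT5G39980, a tetratricopeptide repeat protein (0.194), and AT2G46220, a protein of unknown function (0.231).

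PUMP2 (AT5G58970), the close relative of PUMP1, was not called in any comparison. Its levels were 9.84, 11.7 and 14.2 rpm in M. suffruticosa plants 6, 7 and 8, and 11.03, 8.29, 9.69 and 8.97 rpm in M. arvensis plants 9, 12, 13 and 15. The M. moricandioides plants 6, 8, 12 and 15 had 8.20, 6.12, 8.69 and 6.66 rpm. All 3 M. suffruticosa plants lay above the C3 plants, yet the log2 fold change of 0.61 (SE 0.24, edgeR adjusted p = 0.0691) did not pass the threshold. With it, 5 members had every M. suffruticosa plant above every M. moricandioides plant, beside 24.6% of all transcripts, and no member had every plant below, beside 17% of them. For M. arvensis the ranges overlapped and the log2 fold change was 0.25 (SE 0.23, edgeR adjusted p = 0.373).

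PUMP3 (AT1G14140), a more distant member of the group, was lowest in the C3 leaf. It had 6.37, 6.08 and 6.64 rpm in M. suffruticosa plants 6, 7 and 8, and 5.87, 9.90, 12.4 and 14.7 rpm in M. arvensis plants 9, 12, 13 and 15. In M. moricandioides plants 6, 8, 12 and 15 it had 0.833, 2.37, 3.26 and 1.35 rpm. In rpm, every intermediate plant was above the C3 plants, and M. arvensis plant 9 was the lowest of all 7. Means were 6.37 ± 0.282 rpm in M. suffruticosa and 10.7 ± 3.77 rpm in M. arvensis, against 1.95 ± 1.08 rpm in M. moricandioides (SD). The log2 fold change was 2.29 for M. arvensis (SE 0.36, edgeR adjusted p = 0.000267) and 1.63 for M. suffruticosa (SE 0.37, edgeR adjusted p = 0.00594). For M. suffruticosa the call was lost when any of its own plants 6, 7 and 8 or M. moricandioides plant 8 or 15 was left out, at adjusted p of 0.0137 to 0.0202 and log2 fold changes of 1.49 to 1.70. It was also lost with the alike plants summed, at 1.65 (edgeR adjusted p = 0.0246).

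Summed over the 3 uncoupling proteins, reads came to 87.4 ± 10.96 rpm in M. suffruticosa and 57.3 ± 5.58 rpm in M. arvensis, against 26.3 ± 2.67 rpm in M. moricandioides (SD). The makeup of that sum differed. PUMP1 took 79.1 ± 0.0654% of the summed reads in M. suffruticosa, 64.5 ± 6.07% in M. arvensis and 64.4 ± 5.08% in M. moricandioides. PUMP3 took 7.34 ± 0.779%, 18.9 ± 6.65% and 7.21 ± 3.45% in the same species. Shares of reads depend on gene length and are comparable between plants only.

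The dicarboxylate carriers showed no called difference. DIC1 (AT2G22500) had 6.02, 6.93 and 10.2 rpm in M. suffruticosa plants 6, 7 and 8, and 2.43, 2.94, 7.75 and 10.4 rpm in M. arvensis plants 9, 12, 13 and 15. It had 7.29, 5.38, 5.79 and 6.59 rpm in M. moricandioides plants 6, 8, 12 and 15. The C3 plants were close together and lay inside the wide span of M. arvensis, whose plants 9 and 12 were low and 13 and 15 high. Log2 fold changes over M. moricandioides were 0.23 for M. suffruticosa (SE 0.38, edgeR adjusted p = 0.672) and -0.28 for M. arvensis (SE 0.36, edgeR adjusted p = 0.533).

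DIC2 (AT4G24570) was uneven between plants of 1 species. M. suffruticosa plants 6, 7 and 8 had 0.991, 1.41 and 4.28 rpm, and M. arvensis plants 9, 12, 13 and 15 had 0.704, 12.7, 4.25 and 3.88 rpm. M. moricandioides plants 6, 8, 12 and 15 had 1.60, 0.979, 0.290 and 1.21 rpm. Plants 12, 13 and 15 of M. arvensis exceeded every C3 plant, but plant 9 fell within the C3 range. Means were 2.23 ± 1.79 rpm in M. suffruticosa and 5.37 ± 5.11 rpm in M. arvensis, against 1.02 ± 0.549 rpm in M. moricandioides (SD).

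The log2 fold change of DIC2 over M. moricandioides was 2.22 for M. arvensis (SE 0.74, edgeR adjusted p = 0.0256) and 1.05 for M. suffruticosa (SE 0.81, edgeR adjusted p = 0.340), neither called. The values turned on single plants. For M. arvensis the log2 fold change was 1.31 without plant 12 (edgeR adjusted p = 0.124) and 2.55 without plant 9 (edgeR adjusted p = 0.00699). On all plants limma-voom gave 1.86 with an adjusted p of 0.0846, and DESeq2 gave 2.22 with an adjusted p of 0.00605. For M. suffruticosa it was 0.13 without plant 8 (edgeR adjusted p = 0.929). M. arvensis plant 9, low in DIC2, was also low in rapid stress transcripts. The 10 listed genes, 5 of them at 0 reads, summed to 43.5, 32.9 and 41.1 rpm in M. suffruticosa plants 6, 7 and 8 and to 9.39, 62.0, 124.3 and 116.7 rpm in M. arvensis plants 9, 12, 13 and 15, against 10.9 to 26.8 rpm in M. moricandioides. Of the 4 tested genes of that list, the regulators WRKY40 (log2 2.72, edgeR adjusted p = 0.000471) and ZAT10 (log2 2.13, edgeR adjusted p = 0.00735) were higher in M. arvensis than in M. moricandioides. None was called in M. suffruticosa. The plant highest in DIC2 was not the plant highest in this list, and the part of these transcripts in the DIC2 values was not tested.

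**Figure D4:**
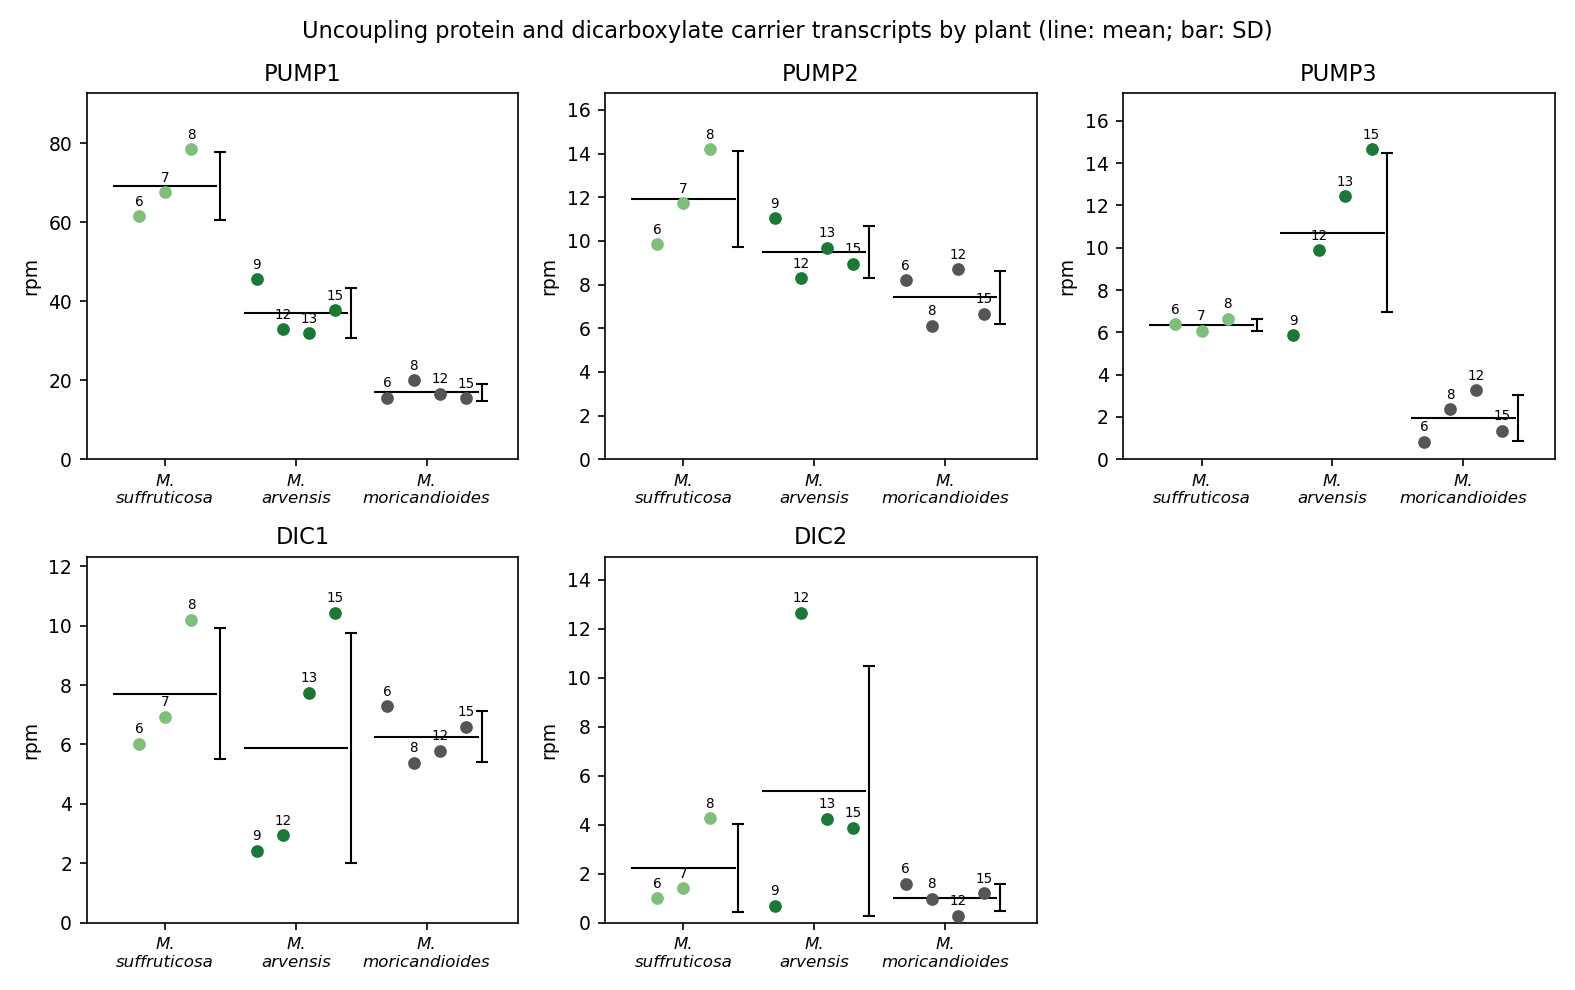
Level in rpm (vertical axes, each from 0) of the uncoupling proteins PUMP1, PUMP2 and PUMP3 and the dicarboxylate carriers DIC1 and DIC2, by plant. Points are plants with their numbers, lines are means and bars are SD, for M. suffruticosa, M. arvensis and M. moricandioides from left to right. PUMP1 separates the 3 species, PUMP3 separates both intermediates from the C3 species, and DIC2 in M. arvensis runs over the span of 0.704 to 12.7 rpm.

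Set against each other, the intermediates differed in 2 of the 9 members, beside 19.3% of all transcripts called, 9.92% higher and 9.4% lower in M. suffruticosa. PUMP1 was higher in M. suffruticosa than in M. arvensis, with a log2 fold change of 0.92 (SE 0.22, edgeR adjusted p = 0.00695). AOX1D was lower, with a log2 fold change of -1.50 (SE 0.31, edgeR adjusted p = 0.00302). Of the remaining members, AOX1B had every M. suffruticosa plant above every M. arvensis plant in rpm. Its log2 fold change, taken after TMM scaling, was only 0.23 (SE 0.25, edgeR adjusted p = 0.497). M. arvensis plant 9, highest of its species in AOX1B rpm, had the lowest scaling factor of all libraries (0.834). The separation therefore need not hold after scaling. Ranges free of overlap in rpm occurred for 2 members upward, beside 18.3% of all transcripts, and for 1 member downward, beside 19.8%. AOX1C (log2 0.10, SE 0.22, edgeR adjusted p = 0.759) and PUMP3 (log2 -0.66, SE 0.36, edgeR adjusted p = 0.175) were not called.

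The PUMP1 difference between the intermediates was close to the threshold. It was no longer called when M. arvensis plant 12, 13 or 15, any M. suffruticosa plant, or M. moricandioides plant 6 was left out, at adjusted p of 0.01003 to 0.0306 and log2 fold changes of 0.77 to 1.00. With the alike plants summed it was 0.90 (edgeR adjusted p = 0.0405), and AOX1D was then -1.66 (edgeR adjusted p = 0.0162), so neither passed.

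For comparison, a list of 18 other mitochondrial carriers was read in the same fit, and 16 of them were tested. In M. suffruticosa 1 was higher and 2 were lower than in M. moricandioides, and in M. arvensis 2 were higher and 4 lower. Median log2 fold changes of the list were 0.18 and -0.13 in these comparisons. A difference between this list and the members was not tested.

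ADNT1, an adenine nucleotide transporter, was higher in both intermediates, at 144 ± 21.2 rpm in M. suffruticosa and 122 ± 16.8 rpm in M. arvensis against 74.3 ± 4.74 rpm in M. moricandioides. Its log2 fold changes were 0.87 (edgeR adjusted p = 0.000304) and 0.59 (edgeR adjusted p = 0.00133). AAC3, an ADP/ATP carrier, was lower in both, with log2 fold changes of -1.08 in M. suffruticosa (edgeR adjusted p = 0.00431) and -2.35 in M. arvensis (edgeR adjusted p = 9.84e-06). The NAD+ carrier NDT1 was lower in M. arvensis (log2 -1.57, edgeR adjusted p = 0.000226), and the S-adenosylmethionine carrier SAMC1 was lower in M. suffruticosa (log2 -0.97, edgeR adjusted p = 0.00488).

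The basic amino acid carrier BAC2, chosen after its values were seen, was at 0.667 ± 0.530 rpm in M. suffruticosa and 8.73 ± 2.71 rpm in M. arvensis, against 0.142 ± 0.205 rpm in M. moricandioides. Its log2 fold change for M. arvensis was 5.67 (SE 0.70, edgeR adjusted p = 5.74e-05). DIC3, the third dicarboxylate carrier, was at 2.02 ± 0.312 rpm in M. suffruticosa and 1.33 ± 0.629 rpm in M. arvensis, against 0.571 ± 0.590 rpm in M. moricandioides and was not called in any comparison. BOU, a glutamate carrier needed for photorespiration, and the dicarboxylate/tricarboxylate carrier DTC were not called either. Over M. moricandioides, DTC had log2 fold changes of -0.68 in M. suffruticosa (edgeR adjusted p = 0.0113) and -0.53 in M. arvensis (edgeR adjusted p = 0.0165), close to the threshold. Those of BOU were 0.39 (edgeR adjusted p = 0.161) and 0.27 (edgeR adjusted p = 0.263).

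**Figure D5:**
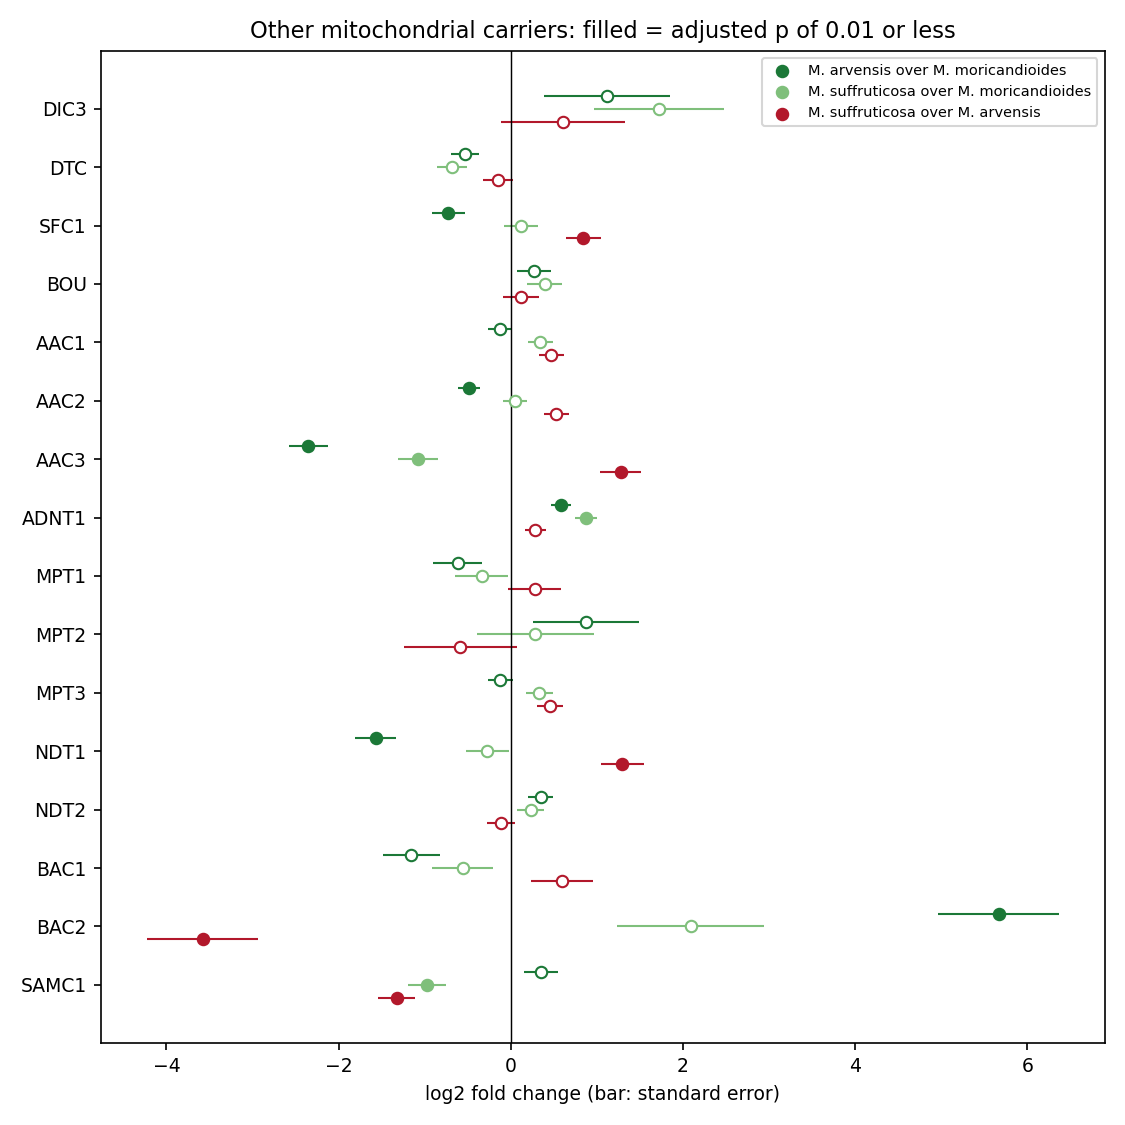
Log2 fold change (horizontal axis) of 16 other mitochondrial carriers in the 3 comparisons, with bars for the standard error and filled points for an adjusted p of 0.01 or less. BAC2 in M. arvensis lies at 5.67, AAC3 lies left of 0 in both comparisons with M. moricandioides, and the points of the other carriers fall on both sides of 0, some of them filled.

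Other transcripts tied to alternative respiration were read from lists. In a list of 8 genes for alternative dehydrogenases and the plastid terminal oxidase PTOX, 5 were tested and 3 were at 0 reads. NDC1, a type II dehydrogenase, was lower in both M. suffruticosa (log2 -0.92, edgeR adjusted p = 0.0088) and M. arvensis (log2 -1.30, edgeR adjusted p = 0.00034) than in M. moricandioides. PTOX, the plastid relative of alternative oxidase, was higher in M. arvensis (log2 0.74, edgeR adjusted p = 0.00735) and not called in M. suffruticosa (log2 -0.36, edgeR adjusted p = 0.207). NDA1, an internal NADH dehydrogenase, had log2 fold changes of 0.66 in M. suffruticosa (edgeR adjusted p = 0.064) and 0.25 in M. arvensis (edgeR adjusted p = 0.412).

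Of 8 genes of the mitochondrial retrograde response, which in Arabidopsis rise with AOX1A when respiration is blocked, 4 had enough reads and 4 were at 0. None of the 4 was called in either comparison with M. moricandioides. OM66, an outer membrane protein induced in that response, had log2 fold changes of -0.26 in M. suffruticosa (edgeR adjusted p = 0.729) and 1.21 in M. arvensis (edgeR adjusted p = 0.0406). AOX1A, the defining gene of the list, had no reads. Of 9 regulators of AOX1A, 4 were tested, and WRKY40 was the one called against M. moricandioides, in M. arvensis as given above. NAC013, an activator of the retrograde response that stands in both lists, was called between the intermediates, where it was lower in M. suffruticosa at 6.99 ± 1.201 rpm against 13.1 ± 1.09 rpm in M. arvensis (log2 -0.87, edgeR adjusted p = 0.009).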

How the data were processed

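Per the methods of the study, leaf mRNA was sequenced as single-end reads of 100 bp, and BLAT placed each read, compared as protein, on a reduced set of Arabidopsis coding sequences (TAIR10), keeping the best hit. CASAVA, edgeR and TAIR10 are named in the submitters' processing notes. The authors deposited raw counts and rpm per gene model and plant, where rpm is the count scaled to 1000000 counted reads. Reads that failed to map to an Arabidopsis sequence are missing from all values, and paralogs can exchange reads. The authors' own table of fold changes and p-values was not used, nor was their table of read totals.

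Species came from the sample labels, which call the replicates separate plants. The 10 members and all lists were chosen with earlier results of these data known. Counts were fitted in edgeR 4.0.16 (R 4.3.3) with filterByExpr (minimum count 10), TMM scaling and 1 term per species over all 11 libraries, using the quasi-likelihood F test and Benjamini-Hochberg adjustment over 15570 transcripts. The biological coefficient of variation was 0.259. In simulated data, changes were planted only in transcripts with a mean of at least 10 rpm, all given the same spread between plants. There 100% of 4-fold and 46% of 2-fold changes were recovered for M. arvensis over M. moricandioides, and 100% and 36% for M. suffruticosa over M. moricandioides. AOX1D, AOX2, PUMP2, PUMP3, DIC1 and DIC2 had means under 10 rpm, where recovery was not simulated. Alternatives were other scalings, other filters, DESeq2 1.42.0, limma-voom 3.58.1, a replicate block, pairwise fits, the alike plants summed, a threshold of 0.05 and each library left out. Named genes outside the members were up to 4 called genes of each list with the largest fold change against M. moricandioides and a mean over all plants of at least 5 rpm, plus the 3 transcripts of at least 10 rpm most like AOX1C and PUMP1. AOX1A has no profile. Genes outside this rule are given with values or test results, among them PI, NAC013, OM66, NDA1, DIC3, BOU and DTC. BAC2 and the examples at 0 reads are said to be chosen after their values were seen. Depth of 10987959 to 14865167 reads sets a limit of 0.202 to 0.273 rpm (3 reads) for a count of 0. Intervals and limits cover counting error only, and p-values measure the spread between plants of 1 seed source.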

Additional observations from a re-analysis of the deposited data

Results flagged for a closer look

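For 2 members the effect against the shared M. moricandioides plants differed between the intermediates by a test of the difference itself. AOX1D had a log2 fold change of -1.50 for M. suffruticosa over M. arvensis (edgeR adjusted p = 0.00302), with every M. suffruticosa plant below every M. arvensis plant. PUMP1 had a log2 fold change of 0.92 (edgeR adjusted p = 0.00695), with every M. suffruticosa plant above every M. arvensis plant. Dixon's test marked no single plant in the 18 groups of 4 plants that were examined, each of them 1 member in M. arvensis or M. moricandioides. The M. suffruticosa groups of 3 plants were not examined in this way.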

How the results depend on the processing

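The 5 members called for M. arvensis over M. moricandioides stayed 4 to 6 under every scaling, filter and tool and 5 to 6 with any library left out. The 4 called for M. suffruticosa over M. moricandioides stayed 4 in those settings, came to 3 with pairwise fits and with the alike plants summed, and to 3 to 5 with any library left out. The 2 called for M. suffruticosa over M. arvensis came to 1 with pairwise fits, to 1 with a filter of 10 rpm, which left 5 members to test, to 0 with the alike plants summed, and to 1 to 2 with any library left out. With the alike plants summed, 2 of 9 members had an unadjusted p under 0.05, beside 34.2% of all transcripts, and DESeq2 and limma-voom on all plants called 2.

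The labels do not say that equal plant numbers pair the samples. Deviations of same-numbered plants correlated at only -0.069 to 0.0334 between species, which gives no sign of pairing. So few pairs cannot exclude a small shared effect, and M. suffruticosa and M. arvensis share no number. With the number as a replicate block the members called fell to 0 for M. arvensis over M. moricandioides (6 of 9 had an unadjusted p under 0.05, beside 37.1% of all transcripts, with adjusted p of 0.0186 to 0.0949 for the 5), to 1 (PUMP1) for M. suffruticosa over M. moricandioides and to 0 for M. suffruticosa over M. arvensis (2 of 9 had an unadjusted p under 0.05, beside 17.6% of all transcripts). The block takes up residual degrees of freedom, and all transcripts called fell with it to 800, 146 and 0, against 5444, 2950 and 3007 without it.

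Directions turned for uncalled values. Under the replicate block, the log2 fold change of AOX2 was 0.041 (-0.92 without it) and that of PUMP2 -0.088 for M. arvensis over M. moricandioides. For M. suffruticosa over M. moricandioides, AOX1D was -0.065 with the alike plants summed and -0.081 to 0.38 with any library left out, below 0 without M. suffruticosa plant 6 or 7. DIC1 was -0.069 to 0.39 with any library left out, below 0 without M. suffruticosa plant 8. Counts over all transcripts moved beyond 1.5 times with the alike plants summed, to 1424 for M. suffruticosa over M. moricandioides and 1029 for M. suffruticosa over M. arvensis. Without M. suffruticosa plant 6 or 7 they were 1656 and 1634 for the comparison with M. moricandioides, and 1736 and 1554 for that with M. arvensis. At an adjusted p of 0.05 they were 5319 and 5409. Scaling by library totals moved the median of all transcripts by 0.13 for M. arvensis over M. moricandioides. The cause of these changes was not tested. Levels under about 5 rpm, as of AOX2 and DIC2, rest on few reads and limit what can be called. The limit also touches called members. AOX1D rested on 11 to 36 reads per library in M. suffruticosa and 21 to 33 in M. moricandioides. PUMP3 rested on 12 to 45 reads per library in M. moricandioides.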
